A study of Mus musculus with 24 samples.

Results

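The pericentral Wnt target genes, 10 genes of liver zonation and Wnt signalling, were followed across the RNA libraries and chromatin region lists of a mouse liver study. The genes were Glul, Oat, Rhbg, Tbx3, Axin2, Nkd1, Rnf43, Znrf3, Lgr5 and Ctnnb1, taken from the expression table by symbol. They make up 10 of the 37583 genes in the deposited expression table, each with 1 row, and all 10 were among the 16471 genes tested, those that reached 10 normalized reads in 3 or more libraries. The list is mixed by design, since Ctnnb1 encodes the pathway's effector and is not itself a zonated target.

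The study asked what the methyltransferase Smyd3 contributes to liver cancer in mice. All RNA came from livers of mice labelled C57BL6/CBA (the growth protocol names C57Bl6), sacrificed at 8.5 months. The 4 groups of 3 mice were wild type without treatment (WT), Smyd3 knockout without treatment (KO), wild type given diethylnitrosamine (DEN_WT) and knockout given diethylnitrosamine (DEN_KO). Diethylnitrosamine (DEN) is a liver carcinogen, given here once at 25 mg/kg into the peritoneum. The KO and DEN_KO mice carry a gene trap cassette in the fifth intron of Smyd3 in every tissue, so the exons upstream of it can still be transcribed. The labels do not say whether tumour or surrounding tissue was taken. Chromatin came from DEN-treated livers only: regions bound by Smyd3 in wild type, and regions carrying trimethylated lysine 4 of histone H3 (H3K4me3, a mark of active start sites) in wild type and knockout, with 2 replicates behind each deposited list.

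In the liver lobule, Wnt ligands and R-spondins made by endothelial cells around the central vein stabilise beta-catenin in the adjoining hepatocytes. Beta-catenin enters the nucleus, joins TCF/LEF factors and switches on genes for glutamine synthesis, drug metabolism and the pathway's own brakes. Hepatocytes near the portal vein receive little of this signal and run the urea cycle. Bulk RNA holds no position within the lobule, so pericentral here names what the genes are known for. It also cannot separate fewer cells of a type from less RNA per cell.

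The promoters of Glul, Oat and Axin2 are shown because Glul and Oat were the genes called between the DEN-treated groups, and because all 3 genes had Smyd3 and H3K4me3 regions at their start sites. The H3K4me3 region of DEN_WT at Oat began 4 bases inside the gene, so it did not reach the bases before the start. They are RefSeq windows on build GRCm38.p6, 250 bases before to 50 after the start, on the gene's strand, at chr1:153899679-153899978 (plus strand), chr7:132576349-132576648 (minus strand) and chr11:108920099-108920398 (plus strand). Capitals mark CCCTCC or its reverse complement GGAGGG, a hexamer described as a Smyd3 binding sequence.
Glul: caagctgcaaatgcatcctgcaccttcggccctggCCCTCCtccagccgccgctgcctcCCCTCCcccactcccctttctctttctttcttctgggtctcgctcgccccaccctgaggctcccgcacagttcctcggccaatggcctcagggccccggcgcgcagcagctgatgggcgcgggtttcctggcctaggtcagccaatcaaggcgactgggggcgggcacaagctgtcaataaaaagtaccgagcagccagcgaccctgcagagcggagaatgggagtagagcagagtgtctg
Oat: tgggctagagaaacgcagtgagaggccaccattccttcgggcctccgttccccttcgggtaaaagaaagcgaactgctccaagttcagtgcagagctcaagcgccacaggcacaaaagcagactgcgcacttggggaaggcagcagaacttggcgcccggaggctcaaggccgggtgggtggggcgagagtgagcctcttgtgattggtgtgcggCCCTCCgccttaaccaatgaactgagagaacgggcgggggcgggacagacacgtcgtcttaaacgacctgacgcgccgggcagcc
Axin2: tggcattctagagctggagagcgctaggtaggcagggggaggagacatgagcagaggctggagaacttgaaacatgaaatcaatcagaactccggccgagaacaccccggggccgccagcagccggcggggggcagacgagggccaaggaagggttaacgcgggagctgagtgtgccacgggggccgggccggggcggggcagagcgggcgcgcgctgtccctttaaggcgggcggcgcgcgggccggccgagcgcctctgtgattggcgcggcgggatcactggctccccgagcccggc
The hexamer occurred 2 times in the Glul window, 1 time in the Oat window and not in the Axin2 window. The promoter table matched 6 of the 10 genes (Glul, Oat, Axin2, Nkd1, Rnf43 and Ctnnb1). Of these the first listed starts of Ctnnb1 and Rnf43 held 1 match each and Nkd1 held none, while 39.2% of all 32851 windows of 300 bases held at least 1. The TCF/LEF letters searched on both strands were CTTTGAA, the variant CTTTGAT, and the forms CTTTGTA or CTTTGTT. They were in no window of the 6 genes and in 16.9% of all windows. The Glul window was 64.3% G and C, the Oat window 61.7% and the Axin2 window 70.0%, against a median of 52.7%.

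Expression is given as the authors' normalized read count per library, and differences as log2(value + 1) with their standard error (SE) from limma, adjusted over the 16471 genes with a threshold of 0.05. The gene targeted in the knockout checked the labels: Smyd3 stood at 59 to 89 in WT and 57 to 74 in DEN_WT, against 17 to 29 in KO and 3 to 12 in DEN_KO. Hepatocyte markers were abundant in every library, with a summed value of 1804594 to 4869159 over the 7 matched markers. Sums over all genes ran from 22320634 to 28973396 per library. DEN_WT replicate 2 stood apart, with the lowest value of the 12 libraries for 14.7% of tested genes and for 6 of the 10 genes described here. For the 10 genes, results that rest on it are given with and without it, and for other genes only in part. Replicate numbers name different mice in each group.

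**Figure D1:**
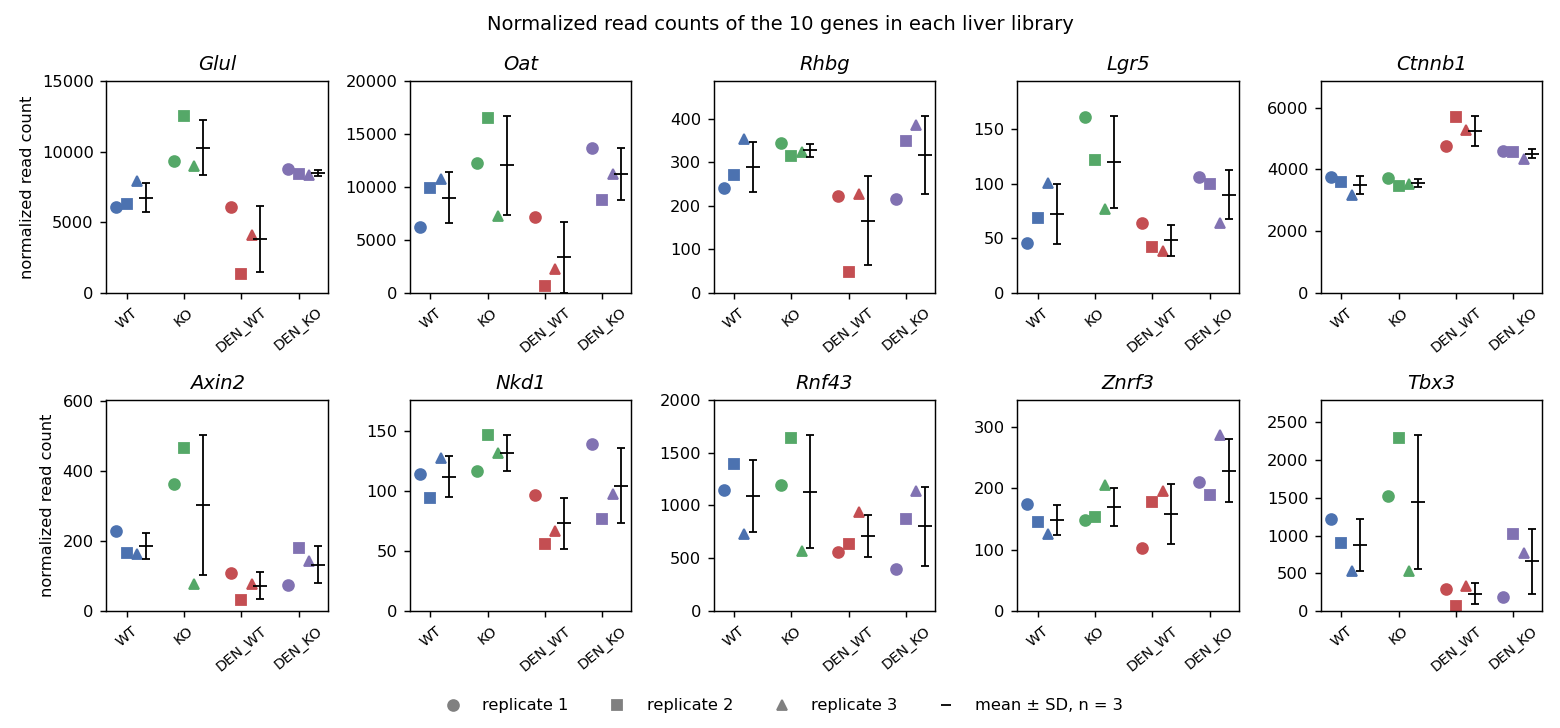
Normalized read count (vertical axis, linear from 0) of each of the 10 genes in the 12 libraries, by group (horizontal axis); symbols are replicates and black marks the mean ± SD of 3 mice, with the bar of Oat in DEN_WT running below 0 and not drawn there. Glul and Oat sit low in 2 of 3 DEN_WT libraries and high in every DEN_KO library, while Ctnnb1 is above all untreated libraries in both DEN-treated groups.

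Among the 3 genes for enzymes and transport, Glul and Oat were higher in DEN-treated knockout than in DEN-treated wild type, and Oat was lower in DEN-treated than in untreated wild type. Glul (ENSMUSG00000026473, mm9 chr1:155747074-155756853) encodes glutamine synthetase, which fixes ammonium into glutamine in the innermost pericentral hepatocytes. Its values were 6070, 6259 and 7937 in WT and 9374, 12519 and 8961 in KO. They were 6049, 1346 and 4066 in DEN_WT, and 8759, 8396 and 8334 in DEN_KO. The DEN_WT libraries differed among themselves, with DEN_WT replicate 1 next to the lowest WT library and DEN_WT replicate 2 far below it. The 3 DEN_KO libraries lay close together and above every WT library.

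Between DEN_KO and DEN_WT, Glul differed by 1.40 ± 0.39 (SE, log2, adjusted p = 0.014, limma). It stayed past the threshold under all 22 alternatives tried, though the highest limma adjusted p among them was 0.05 after rounding. Leaving out DEN_WT replicate 2 gave the smallest difference, 0.78. The SE comes from 1 spread shared by the groups. Around their group mean, the log2 values lay at 0.91, -1.25 and 0.34 in DEN_WT, against 0.04, -0.02 and -0.03 in DEN_KO. The SE may therefore be too small for DEN_WT, and no alternative gave each group its own spread. Against WT, Glul in DEN_WT was lower by -1.06 ± 0.39 (log2, adjusted p = 0.056), which missed the threshold although no DEN_WT library reached the lowest WT library. That gap was 6049 against 6070, and 20.9% of all tested genes likewise had every DEN_WT library below every WT library. Without DEN_WT replicate 1 the same difference was -1.52 (adjusted p = 0.0067), and with TMM scaling it was -1.11 (adjusted p = 0.043), while without DEN_WT replicate 2 it was -0.44 (adjusted p = 0.17). The untreated knockout had every Glul value above every WT value, a pattern found for 8.4% of tested genes, with a difference of 0.60 ± 0.39 (adjusted p = 0.49). A pseudogene copy, Glns-ps1, is counted as a gene of its own, with group means of 742.3 in WT, 1017 in KO, 364 in DEN_WT and 1035 in DEN_KO, so reads may be split between the pair.

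Oat (ENSMUSG00000030934, mm9 chr7:139749158-139768081) encodes the mitochondrial ornithine aminotransferase, which in pericentral cells turns ornithine toward glutamate. The 3 WT values were 6252, 9929 and 10770, and the KO values 12311, 16548 and 7258. In DEN_WT they were 7125, 675 and 2232, and in DEN_KO 13719, 8751 and 11265. The lowest DEN_WT library was DEN_WT replicate 2, and DEN_WT replicate 1 lay inside the range of WT.

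Oat rose in DEN_KO over DEN_WT by 2.33 ± 0.61 (log2, 5.01-fold, adjusted p = 0.01, limma), with every DEN_KO library above every DEN_WT library, as for 23.6% of tested genes. This held under all 22 alternatives, from 1.47 without DEN_WT replicate 2 to 3.17 without DEN_WT replicate 1. As for Glul, the spread was shared by the groups in every alternative. The log2 values of Oat lay at 1.69, -1.71 and 0.02 from their mean in DEN_WT, and at 0.31, -0.34 and 0.03 in DEN_KO. Oat fell in DEN_WT against WT by 1.99 ± 0.61 on the log2 scale (3.96-fold lower, adjusted p = 0.025). That call was lost in 8 of 22 alternatives, among them the fits without WT replicate 2 (adjusted p = 0.075), WT replicate 3 (0.075), DEN_WT replicate 2 (-1.13, 0.086) and DEN_WT replicate 3 (-1.99, 0.059). The deposited span of Oat overlaps that of Fgfr2 on the same strand, whose highest value in any library was 1767.

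Rhbg encodes an ammonium transporter of the pericentral hepatocyte membrane. It had 242, 271 and 354 in WT, 223, 48 and 226 in DEN_WT, and 216, 348 and 386 in DEN_KO. The DEN_WT libraries were all below the WT libraries, 2 of them closely, as for 20.9% of tested genes, and DEN_KO overlapped both groups. The difference was -1.08 ± 0.46 in DEN_WT against WT (adjusted p = 0.092) and 1.19 ± 0.46 in DEN_KO against DEN_WT (adjusted p = 0.061, limma), neither past the threshold. Both passed without DEN_WT replicate 1 (-1.44 with adjusted p = 0.041, and 1.55 with adjusted p = 0.026) and without DEN_WT replicate 3 (-1.45 with 0.044, and 1.56 with 0.029), which leaves DEN_WT replicate 2 with more weight. Without DEN_WT replicate 2 they shrank to -0.34 (adjusted p = 0.35) and 0.45 (adjusted p = 0.21).

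Tbx3 encodes a T-box repressor that Wnt signalling induces in pericentral hepatocytes. Its WT values were 1216, 897 and 530, and its KO values 1518, 2298 and 532. In DEN_WT they were 287, 70 and 331, and in DEN_KO 185, 1018 and 774. All DEN_WT libraries lay below all WT libraries, as for 20.9% of tested genes, and the DEN_KO libraries were split on either side of the WT minimum. Tbx3 fell in DEN_WT against WT by 2.14 ± 0.70 on the log2 scale (adjusted p = 0.034, limma). The call was kept in 16 of 22 alternatives. It was lost without WT replicate 1 (-1.87, adjusted p = 0.11), WT replicate 2 (-2.09, 0.088) or DEN_WT replicate 2 (-1.43, 0.15). It was also lost without a variance trend (limma adjusted p = 0.065), with a robust fit (0.082) and with the replicate number as a block (0.054). In DEN_KO against DEN_WT the difference of 1.48 ± 0.70 did not pass (adjusted p = 0.12), but did without DEN_KO replicate 1 (2.23, adjusted p = 0.025), and it was 0.77 without DEN_WT replicate 2 (adjusted p = 0.43). Within groups the log2 SD of Tbx3 was 1.10, above that of 97.1% of tested genes.

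None of the 4 feedback inhibitors was called between groups with all 12 libraries in the limma fit. Axin2, a scaffold of the complex that degrades beta-catenin and a widely used readout of the pathway, had 230, 166 and 162 in WT and 364, 466 and 79 in KO. Its values were 108, 32 and 77 in DEN_WT and 75, 179 and 143 in DEN_KO. Every DEN_WT library was below every WT library, as for 20.9% of tested genes. KO replicate 3 lay below every WT library while the other KO libraries lay above them. The Axin2 difference in DEN_WT against WT was -1.50 ± 0.59 (adjusted p = 0.071, limma). It passed without KO replicate 3 (same difference, adjusted p = 0.015), since all 4 groups share 1 spread, and without DEN_WT replicate 1 (-1.86, adjusted p = 0.047), but not without DEN_WT replicate 2 (adjusted p = 0.25). Between the DEN-treated groups the Axin2 difference was 0.94 ± 0.59 (adjusted p = 0.23), and 0.44 without DEN_WT replicate 2.

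Nkd1, an inhibitor that binds Dishevelled, stood at 94 to 128 in WT, 117 to 147 in KO, 56 to 97 in DEN_WT and 77 to 139 in DEN_KO. Its difference of -0.63 ± 0.27 in DEN_WT against WT missed the threshold (adjusted p = 0.097) and passed without DEN_WT replicate 1 (-0.85, adjusted p = 0.044), and was -0.46 without DEN_WT replicate 2 (adjusted p = 0.28). Rnf43 and Znrf3 encode the membrane ubiquitin ligases that clear Frizzled receptors from the cell surface. Rnf43 ranged from 729 to 1395 in WT and from 562 to 936 in DEN_WT, a difference of -0.60 ± 0.42 (adjusted p = 0.30). Znrf3 ranged from 125 to 175 in WT and from 103 to 195 in DEN_WT, a difference of 0.06 ± 0.27 (adjusted p = 0.90, interval -0.52 to 0.63 before adjustment).

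Lgr5, the R-spondin receptor of pericentral hepatocytes, had 46, 69 and 101 in WT and 161, 122 and 77 in KO. It had 64, 42 and 38 in DEN_WT and 106, 100 and 64 in DEN_KO. The DEN_KO libraries met the DEN_WT libraries only at 64. The difference between the DEN-treated groups was 0.90 ± 0.36 (adjusted p = 0.069, limma), and it passed without DEN_WT replicate 1 (1.12, adjusted p = 0.045) and with quantile normalization (1.07, adjusted p = 0.028), and was lowest without DEN_WT replicate 3 (0.75, adjusted p = 0.19).

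Ctnnb1, which encodes beta-catenin itself, rose with DEN in wild type. Its values were 3739, 3594 and 3180 in WT and 3715, 3450 and 3522 in KO. They were 4742, 5705 and 5265 in DEN_WT and 4599, 4574 and 4331 in DEN_KO. Each DEN-treated library exceeded each untreated library, a lack of overlap seen for 22.4% of tested genes in DEN_WT against WT and for 18.6% in DEN_KO against KO. In the knockout that difference did not pass (0.34 ± 0.14, adjusted p = 0.11, limma). Ctnnb1 rose in DEN_WT against WT by 0.58 ± 0.14 (log2, 1.49-fold, adjusted p = 0.0063, limma) and stayed past the threshold in all 22 alternatives. It had the smallest spread of the 10 genes, a within-group log2 SD of 0.098, below that of all but 0.7% of tested genes. In DEN_KO every value was below every DEN_WT value, as for 26.4% of tested genes, but the difference of -0.22 ± 0.14 did not pass (adjusted p = 0.24), except with quantile normalization (-0.51, adjusted p = 0.027). This is messenger RNA, and beta-catenin activity is set largely by the stability of the protein, which was not measured.

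**Figure D2:**
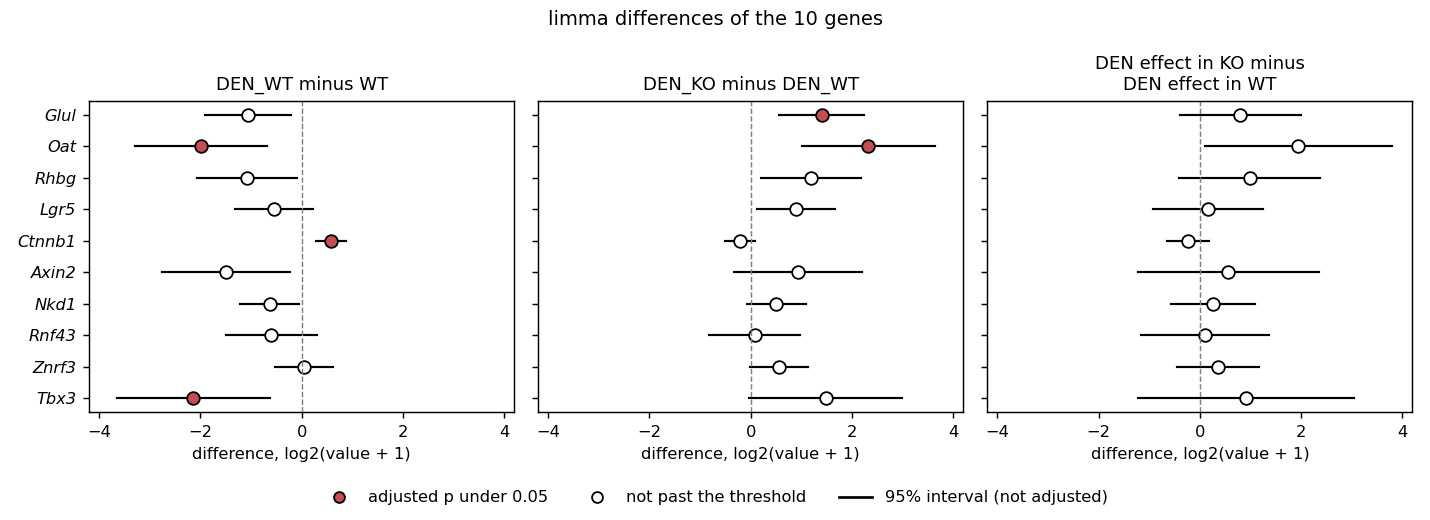
Difference in log2(value + 1) for each gene (points) with its unadjusted 95% interval (lines), in DEN_WT against WT, DEN_KO against DEN_WT and the difference between the 2 DEN effects; filled points passed an adjusted p of 0.05. Oat and Tbx3 are filled below 0 and Ctnnb1 above 0 on the left, Glul and Oat above 0 in the middle, and no point is filled on the right.

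Counted together, 3 of the 10 genes passed in DEN_WT against WT, 2 lower (Oat and Tbx3) and 1 higher (Ctnnb1), where 29.6% of all tested genes passed (13.5% lower and 16.1% higher). The share called was therefore close to the background, and the median difference was -0.85 against -0.02 over all tested genes. The count was 1 without WT replicate 2 or without DEN_WT replicate 2, and 7 (6 lower, 1 higher) without DEN_WT replicate 1. In DEN_KO against DEN_WT, 2 of 10 passed, both higher (Glul and Oat), where 33.9% of all tested genes passed (16.4% higher and 17.4% lower), and 4 passed without DEN_WT replicate 1. There the median difference was 0.92, against -0.055 over all tested genes. Both comparisons use the 3 DEN_WT libraries, so a low library in that group enters each of them with opposite sign.

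**Figure D3:**
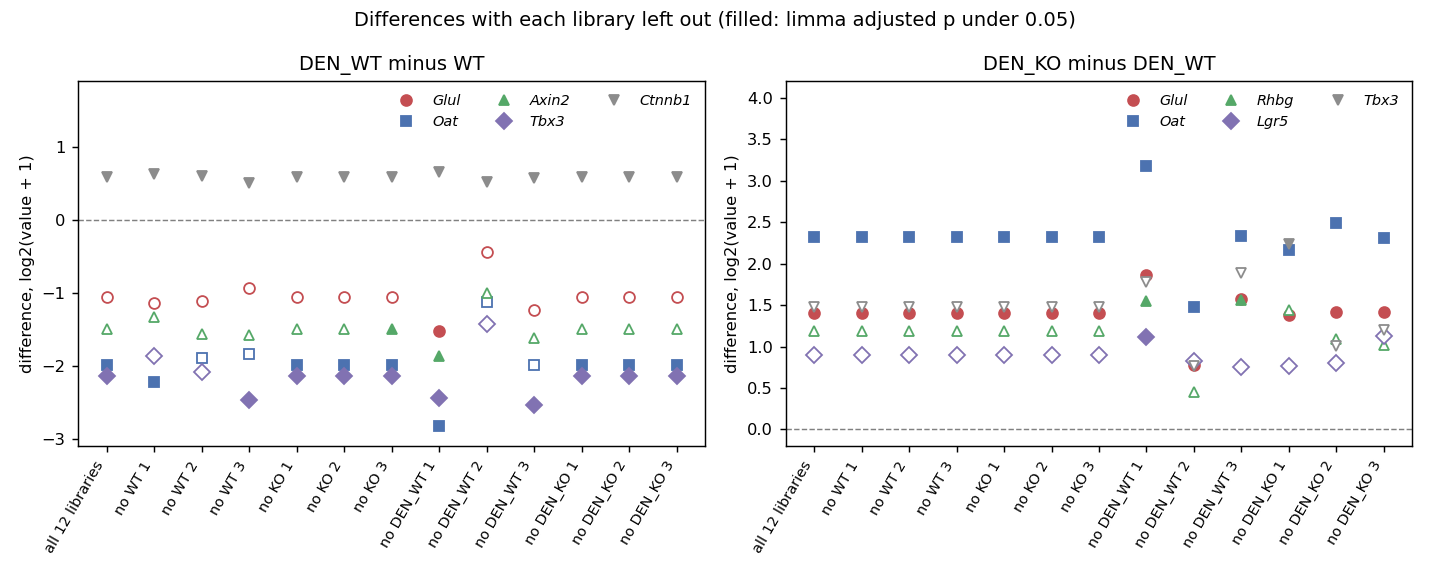
Difference in log2(value + 1) (vertical axis) with all 12 libraries and with each library left out (horizontal axis), for 5 genes in each comparison; filled symbols passed an adjusted p of 0.05. Without DEN_WT replicate 2, the differences of Glul, Oat and Tbx3 shrink on both sides, to -0.44, -1.13 and -1.43 against WT, and Ctnnb1 stays filled throughout.

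In the untreated mice none of the 10 genes passed between KO and WT, against 1.16% of tested genes (191 genes), and none had an unadjusted p under 0.05 in limma. The differences ran from -0.03 (Rnf43) to 0.74 (Lgr5). DEN_KO against KO gave no call either, where 14.9% of tested genes passed, and Ctnnb1 alone had an unadjusted p under 0.05. Without KO replicate 3, Axin2 passed there as lower (-1.72, adjusted p = 0.03), while without KO replicate 2 it was -0.45 (adjusted p = 0.68). The test of whether the DEN effect differed between genotypes passed for 16.6% of tested genes and for 0 of the 10. Of these, Oat alone had an unadjusted p under 0.05, at 1.94 ± 0.86 (adjusted p = 0.14), and it passed without DEN_WT replicate 1 (2.79, adjusted p = 0.011) and was 1.09 without DEN_WT replicate 2 (adjusted p = 0.26). A smaller response of these genes to DEN in the knockout was therefore not shown for any gene with all 12 libraries, and the interval for Glul ran from -0.39 to 2.00 before adjustment.

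Of 18 other pericentral genes, 13 fell and 1 rose in DEN_WT against WT, where 13.5% of all tested genes fell and 16.1% rose, with a median of -1.88 against -0.02 over all tested genes. Among them Cyp2e1, the ethanol-inducible cytochrome P450, fell by 2.93 ± 0.44 on the log2 scale (adjusted p = 0.00033, limma), from 176179, 234001 and 201620 in WT to 46023, 11828 and 34714 in DEN_WT. Cyp1a2 fell by 2.58, and Lect2, a secreted hepatocyte factor and beta-catenin target, by 2.17. The 1 gene that rose was Slc13a3, a dicarboxylate transporter (1.11, adjusted p = 0.025), named because it was the exception. Without WT replicate 2, 9 of the 18 were called, all lower. Without DEN_WT replicate 2, 11 were called, 10 lower and 1 higher.

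In DEN_KO against DEN_WT, 12 of the same 18 rose and 1, again Slc13a3, fell (-1.43), where 16.4% of all tested genes rose and 17.4% fell, with a median of 1.54. Without DEN_WT replicate 2, 10 rose and 1 fell. Cyp2e1 rose by 2.01, Cyp1a2 by 2.69 and Nr1i3, the nuclear receptor CAR, by 3.10. The DEN effect differed between genotypes for 8 of the 18, all higher in the knockout, and for 16.6% of all tested genes, a count that fell to 2 without WT replicate 2 or without DEN_KO replicate 3. Of 13 periportal genes, 6 fell and 2 rose in DEN_WT against WT (median -0.70), where 13.5% of all tested genes fell and 16.1% rose. The urea cycle genes Ass1 (-1.67) and Asl (-1.60) were among the lower, but the largest called change was a rise, in Cdh1 (3.30). In DEN_KO against DEN_WT, 5 of the 13 rose and 1, Cdh1, fell (-2.12), with a median of 0.54.

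**Figure D4:**
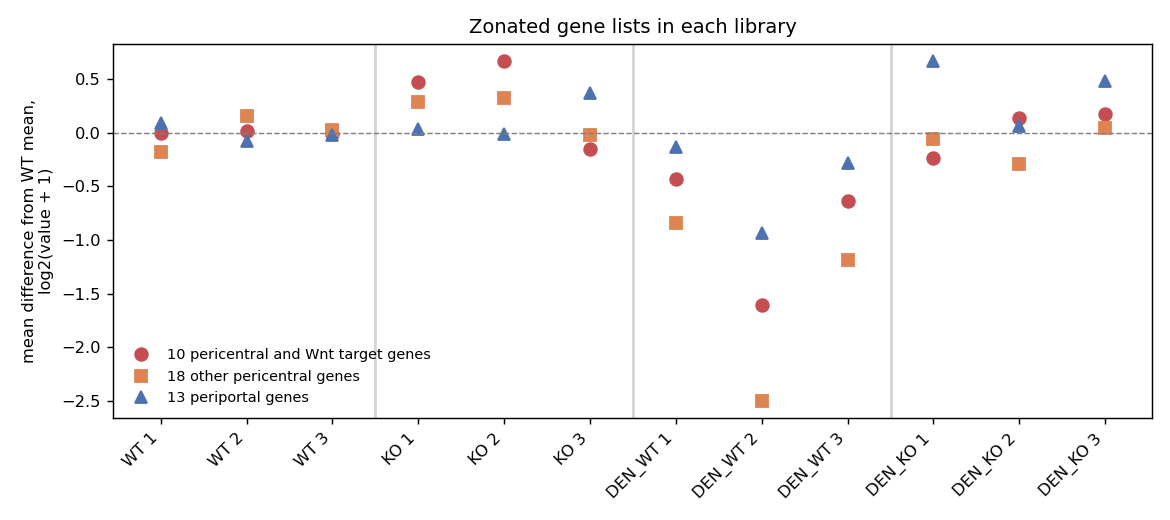
Mean difference from the WT mean in log2(value + 1) (vertical axis) in each library (horizontal axis) for the 10 genes, 18 other pericentral genes and 13 periportal genes. The 10 genes stand at -0.44, -1.60 and -0.63 in the 3 DEN_WT libraries, the other pericentral genes lower in each of them (-0.84, -2.50 and -1.19), and the periportal genes nearer 0 (-0.14, -0.93 and -0.28).

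Upstream of the target genes, few ligand genes were expressed: 10 of 25 ligand, export and R-spondin genes passed the filter. The endothelial signals of the central vein did not pass in DEN_WT against WT, with -0.69 ± 0.34 for Wnt2 (adjusted p = 0.14), -0.47 ± 0.32 for Wnt9b (adjusted p = 0.30) and -0.54 ± 0.31 for Rspo3 (adjusted p = 0.22). Wnt2 passed as lower without DEN_WT replicate 3 (-1.14, adjusted p = 0.0084). Wnt5b, a ligand mostly linked to beta-catenin-independent signalling, rose in DEN_KO over DEN_WT by 1.80 ± 0.29 (adjusted p = 6e-04), from 96, 60 and 80 to 166, 323 and 371. Wnt5a was the 1 ligand called in DEN_WT against WT (1.41, adjusted p = 0.036), a call lost without WT replicate 1, WT replicate 3, DEN_WT replicate 2 or DEN_WT replicate 3.

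Of 12 tested receptors and co-receptors, 6 rose in DEN_WT against WT and none fell (16.1% of all tested genes rose and 13.5% fell), among them Fzd6 (1.69 ± 0.36, adjusted p = 0.0037, limma), Fzd5 (1.38) and Lgr4 (0.71), the broadly expressed R-spondin receptor. The count was 3 without WT replicate 2 or without DEN_WT replicate 2. No receptor passed in DEN_KO against DEN_WT, where Fzd6 stood at -0.96 (adjusted p = 0.057) and 2 passed as lower without DEN_KO replicate 2. Of 7 secreted inhibitors, Notum, a Wnt-inactivating esterase that is itself a pericentral target, fell in DEN_WT by 1.51 ± 0.32 on the log2 scale (adjusted p = 0.0033) and rose in DEN_KO over DEN_WT by 1.37 ± 0.32 (adjusted p = 0.0056). Its values were 796, 671 and 861 in WT, 330, 170 and 356 in DEN_WT and 686, 648 and 779 in DEN_KO, without overlap of DEN_WT with either. Of tested genes, 20.9% had DEN_WT wholly below WT and 23.6% had DEN_KO wholly above DEN_WT.

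Inside the cell, 3 of 14 genes of the destruction complex and Dishevelled rose in DEN_WT and none fell, where 29.6% of all tested genes passed (16.1% higher and 13.5% lower). Csnk1e, a casein kinase that acts on Dishevelled, was the largest of these at 1.04. Apc differed by 0.05 in DEN_WT (adjusted p = 0.86) and fell in DEN_KO against DEN_WT (-0.55 ± 0.16, adjusted p = 0.02), a call lost without DEN_WT replicate 2 or DEN_KO replicate 2. Of 14 TCF/LEF factors and partners, 2 rose and 1 fell in DEN_WT. Tcf7 rose by 1.42 ± 0.24 in DEN_WT (adjusted p = 0.00069, limma) and fell in DEN_KO against DEN_WT by 1.18 on the log2 scale. Tcf7l2, the main TCF factor of hepatocytes, stood at 0.12 (adjusted p = 0.71).

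Other genes known as Wnt targets were split. Of 9 tested in DEN_WT against WT, 4 rose and 2 fell, where 16.1% of all tested genes rose and 13.5% fell. Ccnd1 (2.66 ± 0.37) and Myc (2.29 ± 0.34, adjusted p = 0.00028, limma), which drive the cell cycle and growth and answer to many pathways, rose, while Sp5 (-2.06 ± 0.53, adjusted p = 0.01), a feedback factor, fell together with Notum. Myc had 52, 88 and 95 in WT against 439, 394 and 302 in DEN_WT, and 77, 177 and 110 in DEN_KO. Sp5 had 56, 106 and 63 in WT against 30, 6 and 24 in DEN_WT. With each library left out, its difference ran from -2.47 to -1.39.

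Around Glul and Oat, 14 of 16 genes of glutamine, ornithine and ammonium handling were tested, of which 3 rose and 5 fell in DEN_WT against WT. Of all tested genes, 16.1% rose and 13.5% fell there, and 16.4% rose and 17.4% fell in DEN_KO against DEN_WT. Aldh18a1, which makes the proline and ornithine precursor from glutamate, rose by 4.04 ± 0.41 (adjusted p = 1.7e-05, limma). Prodh, which breaks down proline, fell by 2.28, and Slc1a2, the pericentral glutamate transporter, by 1.86 (adjusted p = 0.031), a call lost without WT replicate 2 or WT replicate 3. With each library left out, the Slc1a2 difference ran from -2.53 to -0.86. In DEN_KO against DEN_WT, 2 rose and 4 fell, with Prodh at 2.11 and Aldh18a1 at -2.38, and 3 were called without DEN_WT replicate 2, without DEN_WT replicate 3 or without DEN_KO replicate 3.

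Markers of other liver cells moved with the same comparisons. In DEN_WT against WT, where 16.1% of all tested genes rose and 13.5% fell, 6 of 9 endothelial markers rose and none fell. Their summed value was 5891 to 6044 in DEN_WT, against 4058 to 4731 in WT and 5364 to 5993 in DEN_KO. Of 7 stellate cell and fibroblast markers, 3 rose and 1 fell (sums of 4861 to 8050 in DEN_WT, 4275 to 4610 in WT and 3597 to 4461 in DEN_KO). Of 6 tested cholangiocyte markers, 2 rose, and their sum of 10397 to 17403 in DEN_WT against 1271 to 1539 in WT and 1536 to 2328 in DEN_KO was mostly Spp1, which other cells also make. None of 8 macrophage markers passed in DEN_WT against WT, with sums of 2603 to 9678 in DEN_WT against 5029 to 5205 in WT and 8582 to 12603 in DEN_KO, and 3 rose without DEN_WT replicate 2. None of 7 lymphocyte markers passed in either comparison. Of 7 hepatocyte markers, 1, Apoa1, rose in DEN_WT (1.29, adjusted p = 0.043), a call lost in most fits without a library, and 1, Ttr, rose in DEN_KO over DEN_WT (1.65). Hepatocyte sums were 2192711 to 2443255 in WT, 3182207 to 4869159 in DEN_WT and 1804594 to 2656692 in DEN_KO. Where Glul and Oat were called, in DEN_KO against DEN_WT, 4 stellate cell and fibroblast markers, 3 endothelial and 2 cholangiocyte markers fell and no marker of those 3 lists rose. In that comparison 16.4% of all tested genes rose and 17.4% fell. The cholangiocyte count was 1 without any 1 of the DEN_WT libraries and without DEN_KO replicate 1 or 3. There 2 macrophage markers rose (C1qa, by 1.42, and Clec4f), against 5 without DEN_WT replicate 1, 1 without DEN_WT replicate 2 and 0 without DEN_KO replicate 3. Of 5 exocrine pancreas markers only Cela1, which liver also expresses, was tested. No marker of these lists was at 0 in every library, and the part of the other cell types in the results was not tested.

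By likeness of profile over the 12 libraries, among 12311 genes with a mean of at least 50, the 5 genes nearest to Glul were Lcp1, Slco2b1, Ccs, Glns-ps1 and Selenbp1. Their root mean square differences from the centred log2 profile of Glul ran from 0.201 (Lcp1) to 0.312 (Selenbp1), where the median gene was at 0.878. Nearest to Axin2 were Tspyl4 (0.468), Notum (0.509), Tbx3 (0.512), Sp5 (0.546) and Gm10681 (0.555), with a median of 1.072. Glul and Rhbg were each other's nearest among the 10 genes (0.323), as were Axin2 and Tbx3. The profiles share 12 libraries and the low DEN_WT replicate 2, so this is a description.

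The deposited region lists placed Smyd3 at most of these genes. A Smyd3 region lay within 1000 bases of the deposited start site in 7 of the 10 (not Rnf43, Rhbg or Ctnnb1), where 64.2% of tested genes had a region. H3K4me3 regions lay there for the same 8 genes in both genotypes (not Rhbg or Ctnnb1), where 70.5% of tested genes had a region in DEN_WT and 72.4% in DEN_KO. These shares are close to the background. For Ctnnb1 the first region of each list inside the gene began 3817 to 3873 bases from the deposited start, and another H3K4me3 region of DEN_WT ended 1808 bases from the start, outside the span. The span, at 31292 bases, is longer than the 27108 bases of RefSeq. For Rhbg regions of all 3 lists began 32316 to 32398 bases inside a span of 44337 bases, where RefSeq gives 11866. The H3K4me3 regions nearest to its deposited start lay outside the span, 8956 bases away in DEN_WT and 8831 in DEN_KO. Both genes thus carried Smyd3 and H3K4me3 regions inside their deposited spans, and Rnf43 was the only gene of the 10 with no Smyd3 region there. Their deposited spans are longer than in RefSeq, so the RefSeq start may lie farther in. For Rhbg and Ctnnb1, the lack of a region at the deposited start therefore does not show a promoter without one. RefSeq starts were not placed on mm9.

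The H3K4me3 region at Oat differed in width between the lists. In DEN_WT it was chr7:139767020-139768077 (mm9, 1058 bases), and in DEN_KO chr7:139763765-139768844 (5080 bases), 4.80 times as wide. Of 11329 genes with a region in both lists, 0.229% had a ratio at least as large, and the median ratio was 1.11 (quartiles 0.942 and 1.355). The Smyd3 region of DEN_WT at Oat, chr7:139767686-139768290, covered the start site. Glul had 2317 bases in DEN_WT and 2594 in DEN_KO (ratio 1.12), and its RNA also differed between these groups. Lgr5 widened from 2388 to 4018 bases (1.68) and Axin2 from 2832 to 4066 (1.44), while Znrf3 had 2096 and 1848 (0.882). Each list is a single call set per genotype without heights or replicates, so no ratio has an error, and the wide region at Oat was noticed after its values were seen.

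**Figure D5:**
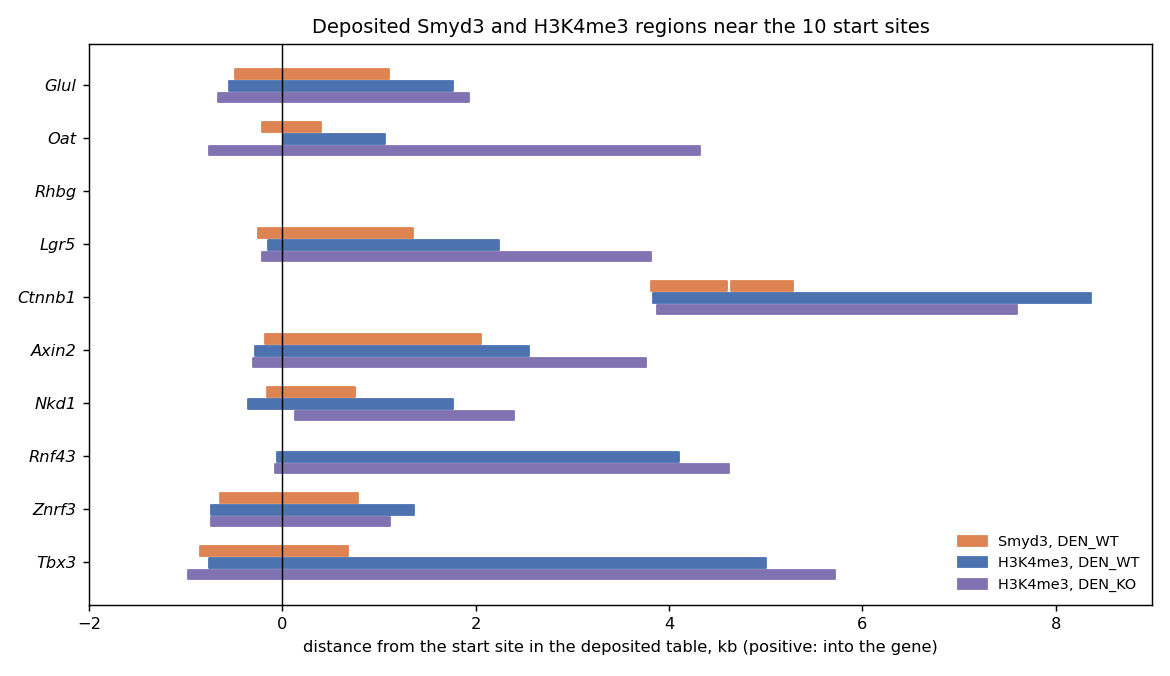
Deposited Smyd3 and H3K4me3 regions (bars, coloured by list) at each gene, by distance in kb from the start site of the deposited table, positive into the gene. The H3K4me3 bar of Oat reaches 1061 bases into the gene in DEN_WT and 4316 in DEN_KO, and the bars of Ctnnb1 begin 3817 bases in or later. Regions farther in than the axis, all those of Rhbg among them, are not drawn. Regions outside the gene and its start window are not drawn either, such as the DEN_WT H3K4me3 region 1808 bases from the Ctnnb1 start.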

How the data were processed

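Per the labels' protocols, liver RNA from 12 mice was sequenced with Ion Proton chemistry. Cutadapt, TopHat2 2.0.9, Cufflinks, Bowtie2 and DESeq with build mm9 are listed in the submitters' processing notes, without role or order. Which program counted reads, whether strand was used and which caller made the regions is not given in these sources. Each cell of the deposited table is a score, a read count that the authors had normalized and rounded to whole numbers, as its values show (median ratios between libraries of 0.999 to 1). The 12 single-library files held the same values. The deposited region lists give starts and ends, 1 list per group of 2 replicates, with no word on pooling.

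Values were tested as log2(value + 1) with limma 3.58.1 (R 4.3.3) in 1 fit of 4 groups (8 residual degrees of freedom, variance trend), over 16471 genes with at least 10 in at least 3 libraries, with Benjamini-Hochberg adjustment at 0.05. The fit was tested on simulated data. Raw counts cannot be had from rounded scaled values, so no counting interval is given. Errors are mouse-to-mouse. A gene had a region where one overlapped 1000 bases on either side of its start. Alternatives were other pseudocounts (0.5 and 5), filters, scalings (TMM, quantile), variance models, a replicate block, the compared groups alone, each library left out, and other windows.

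The 10 genes and the gene lists were chosen with earlier results of these data known. Besides the 10, up to 4 called genes per list and comparison with the largest change were eligible to be named, 12 pathway genes were given whatever they did, and the 5 nearest profiles to Glul and Axin2 were listed. RNA polymerase II and input libraries were not analysed here, and 1 gene that the rule covers is not reported here.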

Additional observations from a re-analysis of the deposited data

Results flagged for a closer look

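None of the 10 genes had a DEN effect that passed the test of a difference between genotypes. Among the other named genes 18 did, each given as the DEN effect in knockout minus that in wild type on the log2 scale (limma, adjusted p under the threshold). Of all tested genes, 16.6% passed this test. Apart from the 12 pathway genes given whatever they did, most genes were named for large called changes in DEN_WT against WT or DEN_KO against DEN_WT. Those comparisons share libraries with this test, so calls among them are not independent of that choice. In pericentral genes the difference was 2.24 for Cyp2e1, 1.96 for Cyp1a2, 2.58 for Lect2, 2.21 for Cyp2c29, 2.05 for Slco1b2, 1.95 for Nr1i3 and 2.27 for Lhpp. In periportal genes it was 2.62 for Cyp2f2, 1.93 for Ass1 and 2.76 for Asl, and -2.13 for Cdh1, which encodes E-cadherin. It was -2.47 for Aldh18a1, of proline and ornithine synthesis. In Wnt pathway genes it was -1.02 for Lgr4, -1.58 for Fzd5, -0.7 for Tnks2 and -1.39 for Tcf7, and in growth genes -1.69 for Ccnd1 and -2.51 for Myc. Of these 18, 9 stayed past the threshold under all 21 alternatives run for this test (Lgr4, Lect2, Slco1b2, Cdh1, Cyp2f2, Asl, Aldh18a1, Tcf7 and Myc). The call was lost under 14 alternatives for Lhpp, 13 for Ccnd1, 12 for Cyp1a2, 12 for Tnks2, 8 for Fzd5, 7 for Cyp2e1, 6 for Ass1, 5 for Cyp2c29 and 5 for Nr1i3. Leaving out WT replicate 2 ended it for 8 of these 9 (not Ass1), as did leaving out DEN_KO replicate 1 for 8 (not Nr1i3) and DEN_KO replicate 3 for 8 (not Fzd5). The difference also takes in the untreated groups. In KO against WT, Lgr4 stood at 0.71 (adjusted p = 0.064, limma), Fzd5 at 0.75 (0.30) and Lect2 at -0.88 (0.18), each opposite in sign to its difference. Nr1i3 stood there at 1.15 (0.18), with the same sign. In DEN_KO against DEN_WT, Lgr4 stood at -0.31 (0.18) and Fzd5 at -0.84 (0.063).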

How the results depend on the processing

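No result changed sign past the threshold under any alternative run. The count of the 10 genes called in DEN_WT against WT (3) was 1 without a variance trend and 1 with a robust fit, and 1 to 7 with each library left out. In DEN_KO against DEN_WT (2) it was 5 with quantile normalization and 2 to 4 with a library left out. It was 0 to 1 in DEN_KO against KO and 0 to 1 for the difference between DEN effects. Over all genes, KO against WT (191) gave 104 without a trend, 115 with the 2 groups alone and 62 to 560 with a library left out. DEN_KO against KO (2460) gave 1170 to 2657 and the difference between DEN effects (2727) gave 1787 to 3084. Among other pericentral genes, DEN_WT against WT (14 called) gave 9 to 14, and the difference between DEN effects (8) gave 4 without a filter, 4 with quantile normalization, 4 without a trend and 2 to 11 with a library left out. The cause was not tested. Of the window settings, all gave 7 to 8 genes with a Smyd3 region and 8 to 9 with H3K4me3.

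With the replicate number as a block, 2 of the 10 genes were called in DEN_WT against WT (Tbx3 had adjusted p = 0.054, limma) and 2 in DEN_KO against DEN_WT. All-gene counts were 4602 and 5288 (4882 and 5576 without the block). With each gene's group mean removed, same-numbered libraries of different groups correlated at -0.1 to 0.12. By that measure, 3 of 12 libraries correlated best with their own number. Whether same-numbered libraries shared a batch was not tested. With 3 mice per group and scaled, rounded values, low genes such as Lgr5 and Axin2 are limited by mouse-to-mouse spread and by unknown depth.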
